A study of Mus musculus with 4 samples.

Results

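FoxO transcription factors and a set of genes that they are known to activate were followed in mouse osteoblasts, which form bone, with and without insulin. The members are 10 gene symbols, out of 18193 that the array annotation gives, chosen with earlier results of these data known. Every probe set annotated to one of them alone was read. That gave 26 probe sets on Affymetrix arrays. The 10 genes are the factors Foxo1 and Foxo3, the cell cycle genes Cdkn1b, Ccng2, Btg1 and Klf4, the transcriptional repressor gene Bcl6, and the redox and stress genes Txnip, Sesn1 and Sesn3. One further probe set that the annotation shares between Foxo3 and another gene was left out.

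The study holds 4 groups with 1 array each. They are a control labelled 0 h and cells given 10 nM insulin for 6, 12 or 24 h after serum starvation, all from confluent cultures. All 4 groups share the same deficient background, which the growth protocol gives as loss of the IGF-1 receptor and the genotype entry as loss of IGF-1. Which of them is meant is not settled by the labels, and the labels name no Cre driver, clone or age. Untreated cells at a later time were not analysed here. Insulin cannot be told apart from time in culture or from other differences of the 0 h array. Among these are its sex-linked transcripts and cell type markers, given below. With 1 array per group there is no replicate error, no test and no p-value for any value below. The number of arrays limits the precision.

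FoxO factors are forkhead transcription factors that bind DNA at a short core sequence. Insulin acts through PI 3-kinase and AKT, which phosphorylates FoxO proteins, and the phosphorylated proteins leave the nucleus. Their activity is therefore set largely on the protein, and RNA arrays read only the transcripts of the factors and of their targets. In osteoblasts FoxO1 is known as a partner of ATF4 and as a part of the redox defence.

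The 10 members all have a promoter in the RefSeq sequences of assembly GRCm38.p6, 12 promoters in all since Sesn1 and Bcl6 have a pair each. A promoter is taken here as 250 bases before to 50 after a transcript start. The forkhead core GTAAACA, searched on both strands, was in 3 of the 12, those of Txnip, Btg1 and Sesn1. Of all 32851 promoters of that length 3.65% held it. The shorter AAACA, which lies within the core, was in 9 of the 12 and in 50.5% of all. The stretches below show the 3 matches, with the core in capitals, and for contrast the upstream 250 bases of Cdkn1b, the member with the largest difference by its bright probe set and without a core match. All 4 are on the plus strand. Txnip is chr3:96557707-96557956, Btg1 is chr10:96616751-96617000, Cdkn1b is chr6:134920151-134920400 and the 27 bases of Sesn1 are chr10:41810586-41810612.
Txnip: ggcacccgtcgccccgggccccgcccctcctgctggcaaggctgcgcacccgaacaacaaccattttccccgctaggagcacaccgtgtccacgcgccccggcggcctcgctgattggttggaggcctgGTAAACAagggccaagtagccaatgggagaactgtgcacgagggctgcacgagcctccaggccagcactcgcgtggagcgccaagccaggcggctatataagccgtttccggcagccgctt
Btg1: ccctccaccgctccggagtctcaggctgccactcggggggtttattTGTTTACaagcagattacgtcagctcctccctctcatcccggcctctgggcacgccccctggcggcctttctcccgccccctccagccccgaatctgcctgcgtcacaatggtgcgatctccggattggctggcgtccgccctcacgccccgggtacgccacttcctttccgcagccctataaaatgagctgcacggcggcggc
Sesn1: aaccttctacTGTTTACcagccttttg
Cdkn1b: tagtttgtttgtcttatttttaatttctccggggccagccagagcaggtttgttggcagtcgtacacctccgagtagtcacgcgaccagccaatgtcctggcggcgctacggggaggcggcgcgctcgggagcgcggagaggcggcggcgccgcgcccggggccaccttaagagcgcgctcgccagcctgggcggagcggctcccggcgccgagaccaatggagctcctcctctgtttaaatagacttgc
In Txnip the core starts 121 bases before the transcript start and in Btg1 204 bases before it. In Sesn1 it lies 22 bases after one of its starts. Btg1 and Sesn1 carry the core on the opposite strand, so it reads TGTTTAC. A match describes the letters and is not a binding site, and these arrays do not measure binding.

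Values are intensities on a linear scale as deposited, and differences are of their log2. Of the 26 probe sets, 21 reached a brightness filter of 66.2, the median over all probe sets, and 5 did not. Each gene was represented by its brightest probe set, and all 10 representatives passed. Of the 21, 15 were lower on all 3 insulin arrays than on the 0 h array and 6 were higher on all 3. Over all 19910 probe sets with 1 symbol above the filter, 44.4% were lower on all 3, 41.9% higher on all 3 and 13.6% neither. The 3 differences share the 0 h array. The 6 higher were the 3 of Foxo1, both of Klf4 and the brighter of Bcl6.

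**Figure D1:**
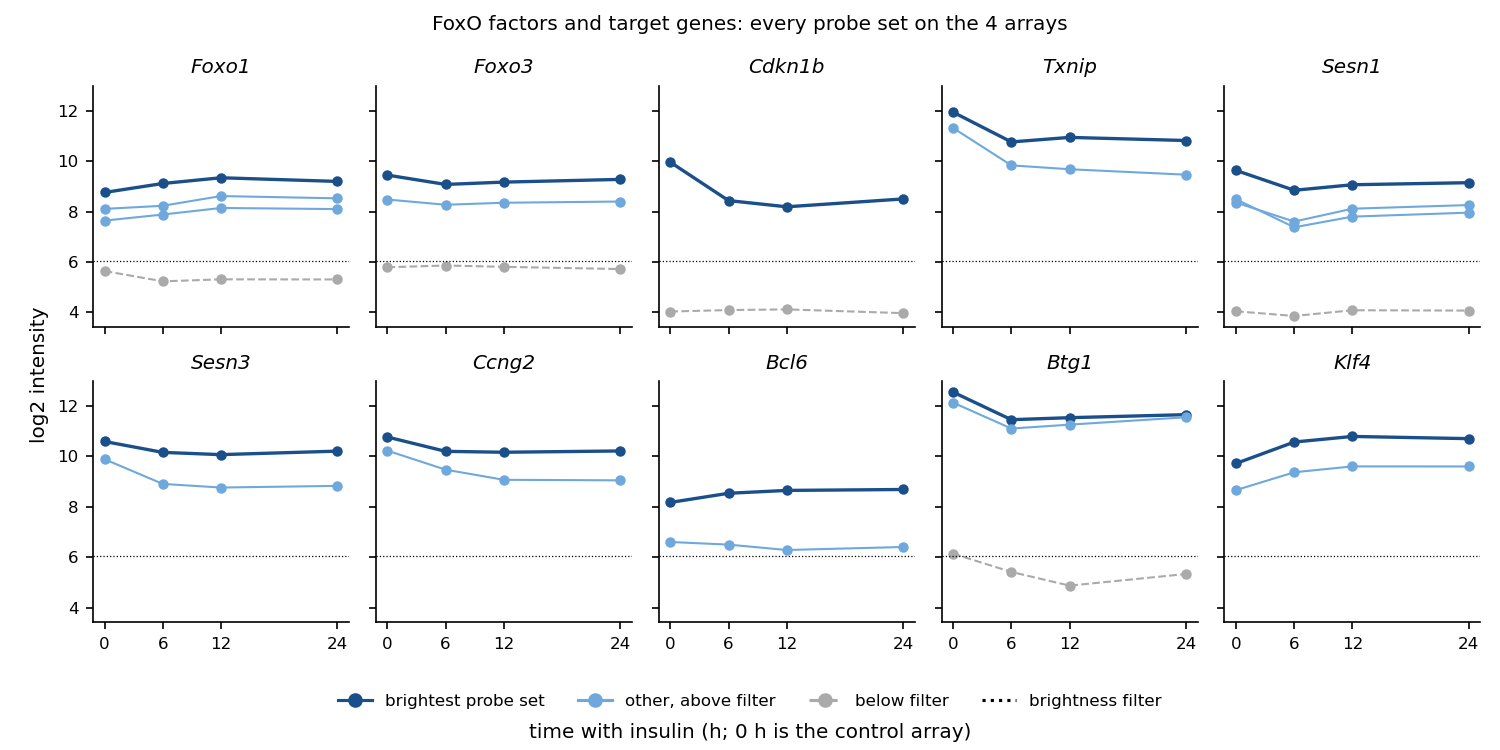
Log2 intensity (y axis) of every probe set of the 10 genes against time with insulin in hours (x axis), 1 array per point, with the 0 h control array at the left. Dark lines are each gene's brightest probe set, light lines are others above the brightness filter, dashed grey lines are those below it, and the dotted line is the filter. The 0 h point is the highest of the dark line for Foxo3, Cdkn1b, Txnip, Sesn1, Sesn3, Ccng2 and Btg1, and the lowest for Foxo1, Bcl6 and Klf4.

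Of the factors, Foxo1 was higher and Foxo3 lower on the insulin arrays, both by less than 1.5-fold. The brightest Foxo1 probe set (1416983_s_at) had intensities of 433, 554, 648 and 586 at 0, 6, 12 and 24 h. The 0 h array was the lowest and the 12 h array the highest. The other Foxo1 probe sets above the filter had 275, 300.02, 392 and 368 (1416981_at) and 199.7, 236, 282 and 274 (1416982_at), in the same order of the arrays. By the brightest, Foxo1 was 1.28, 1.497 and 1.35-fold higher at 6, 12 and 24 h than at 0 h. The remaining Foxo1 probe set, below the filter, pointed the other way with 49.9, 37.6, 39.7 and 39.6. Foxo1 lies on chromosome 3, whose genes had a median log2 difference from 0 h of -0.22 averaged over the insulin arrays. Relative to that chromosome median the Foxo1 differences were 0.59, 0.79 and 0.65 on the log2 scale, past 1.5-fold (0.58) at each time.

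Foxo3 had 697, 539.5, 575 and 619.6 at 0, 6, 12 and 24 h by its brightest probe set (1434831_a_at). The 6 h array was the lowest, and the later insulin arrays lay between it and the 0 h array. The second (1434832_at) had 356, 309, 326 and 337, which is the same order. By the brightest, Foxo3 was 1.29, 1.21 and 1.12-fold lower than at 0 h. The third, below the filter, had 55.4, 58.1, 56.0 and 52.7, nearly level. Foxo4, another member of the family, had 265, 244, 246 and 254. Foxo6 was not analysed here.

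Cdkn1b, which encodes the cyclin-dependent kinase inhibitor p27, had intensities of 994, 346, 292 and 362 at 0, 6, 12 and 24 h (1434045_at). The 0 h array was far above the insulin arrays, and 12 h was the lowest of them. That is 2.87, 3.41 and 2.74-fold lower than at 0 h. The only other Cdkn1b probe set (1419497_at) was near background with 16.4, 17.1, 17.4 and 15.7 and did not show it, so the Cdkn1b difference rests on 1 probe set. Skp2, the ubiquitin ligase subunit that targets p27 protein, was lower too, with 724, 265, 251 and 225. Proliferation markers were lower on the same arrays. Of 6 listed, 5 were measured and 5, 5 and 4 of those were at least 1.5-fold lower at 6, 12 and 24 h. Their summed intensity was 12106, 6320.01, 4719.9 and 5508, lowest at 12 h as for Cdkn1b. The part of proliferation in the Cdkn1b values was not tested.

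Ccng2 encodes cyclin G2, a cyclin linked to cell cycle arrest. Its brightest probe set (1416488_at) had 1741, 1175, 1146 and 1188, so the insulin arrays were level with one another and below 0 h. The second (1448364_at) had 1197, 710.2, 537 and 529.6, with the 6 h array above the later arrays. The first was 1.48, 1.52 and 1.47-fold lower than at 0 h, around the 1.5-fold line, and the second 1.69, 2.23 and 2.26-fold lower. Whether Ccng2 counted as 1.5-fold lower thus depended on the probe set at 6 and 24 h.

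Btg1, an antiproliferative gene of the BTG and TOB family, had 5976, 2805, 2964 and 3221 by its brightest probe set (1426083_a_at). The 0 h array was the highest, and among the insulin arrays the order was 6, 12 and then 24 h. The second (1437455_a_at) had 4479.5, 2199.6, 2448 and 2999 in the same order. The first was 2.13, 2.02 and 1.86-fold lower than at 0 h and the second 2.04, 1.83 and 1.49-fold lower. The third, below the filter, had 70.5, 42.7, 29.3 and 40.3.

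Klf4, a Krüppel-like transcription factor that can hold cells in arrest, was the member at least 1.5-fold higher at each time. It had 843, 1518, 1770.4 and 1665 (1417394_at). The second probe set (1417395_at) had 405, 661, 777 and 775, again lowest at 0 h. By the first, Klf4 was 1.80, 2.10 and 1.98-fold higher than at 0 h. Klf4 lies on chromosome 4, where the median log2 difference at 6 h was 0.30, and relative to it the Klf4 difference at 6 h was 0.54, below the 1.5-fold line.

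Bcl6, a zinc finger repressor, had 289, 371, 401 and 412 by its brightest probe set (1421818_at), with the insulin arrays above 0 h. The other (1450381_a_at), not far above the filter, had 97.3, 90.5, 78.0 and 84.8 and pointed the other way. The first was 1.29, 1.39 and 1.43-fold higher and the second 1.07, 1.25 and 1.15-fold lower. The direction of Bcl6 therefore depended on the probe set.

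Txnip encodes the thioredoxin-interacting protein, which binds thioredoxin and restrains glucose uptake. Its brightest probe set (1415996_at) had 3926, 1735, 1966 and 1805, and the other (1415997_at) 2544, 911, 819 and 705. In both the 0 h array was far above the insulin arrays. The first was 2.26, 1.998 and 2.18-fold lower than at 0 h and the second 2.79, 3.11 and 3.61-fold lower. The probe sets differed among the insulin arrays, since the first was lowest at 6 h and the second at 24 h.

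The sestrins are stress-induced proteins that restrain mTORC1. Sesn1 had 793, 459.5, 535 and 566 at 0, 6, 12 and 24 h (1433711_s_at), and its other probe sets above the filter had 328, 194, 277 and 306 (1438931_s_at) and 359, 166, 223 and 248 (1454699_at). All of these were highest at 0 h, lowest at 6 h and higher again at 12 and 24 h. By the first, Sesn1 was 1.73, 1.48 and 1.40-fold lower than at 0 h, by the second 1.68, 1.18 and 1.07-fold and by the third 2.16, 1.61 and 1.44-fold. The Sesn1 probe set below the filter had 16.5, 14.5, 17.0 and 16.8. Sesn3 had 1541, 1142, 1074 and 1182 (1449303_at), and 946, 480.1, 434 and 455 (1453313_at). Both were highest at 0 h and lowest at 12 h, by 1.35, 1.44 and 1.30-fold at the 3 times in the first and 1.97, 2.18 and 2.08-fold in the second.

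By the representative probe sets, 4, 4 and 3 of the 10 members lay at least 1.5-fold below the 0 h array at 6, 12 and 24 h, against 12.8%, 13.3% and 13.3% of the 11661 genes above the filter. Cdkn1b, Txnip and Btg1 were among them at each time, Sesn1 at 6 h and Ccng2 at 12 h. One member, Klf4, was at least 1.5-fold higher at each time, against 18.6%, 20.5% and 19.5% of all genes. At all 3 times 3 members were lower and 1 higher, against 10.5% and 17% of all genes. The median log2 differences of the members were -0.50, -0.54 and -0.43, and those of all genes 0.0058, 0.0325 and -0.0001. The 3 comparisons share the 0 h array. With 10 members a single gene weighs heavily in each share.

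**Figure D2:**
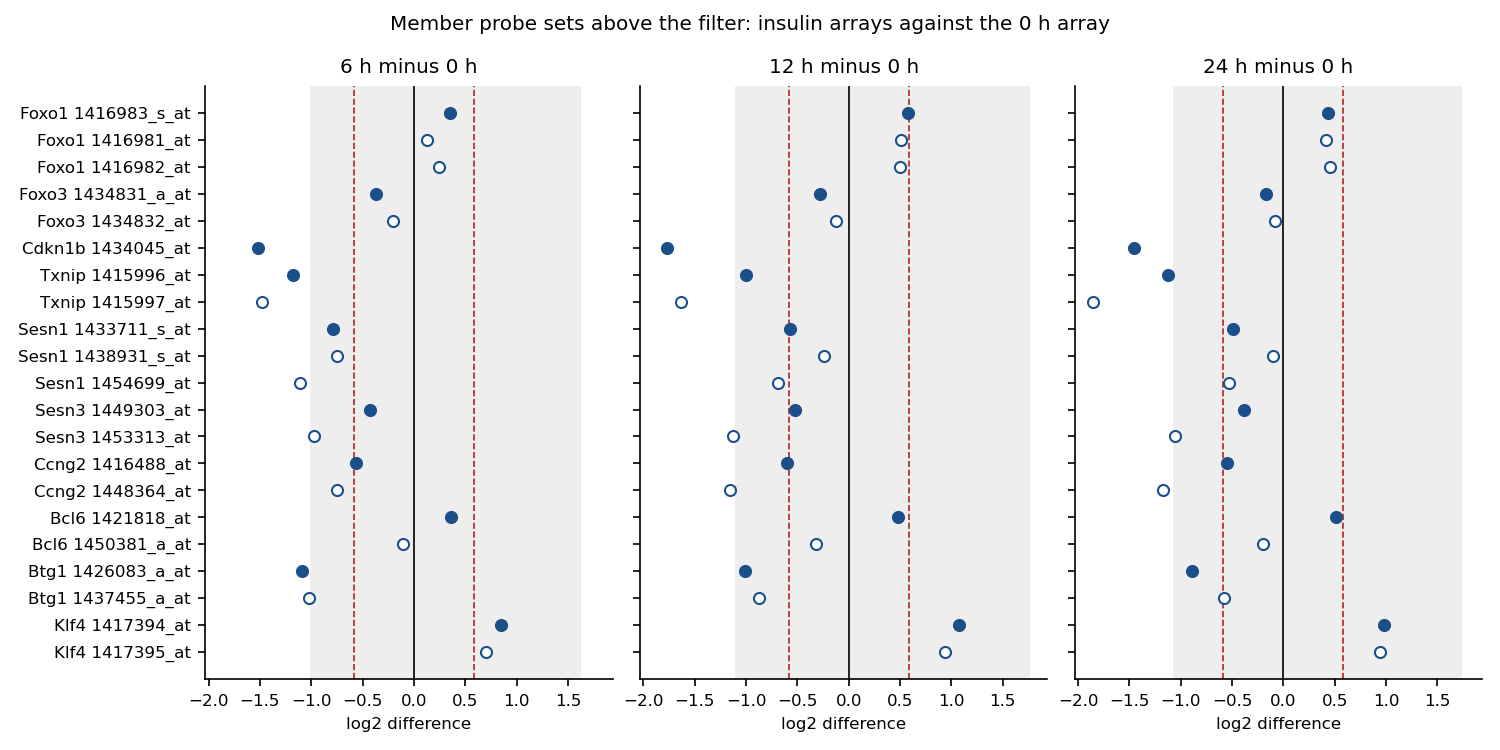
Log2 difference of each insulin array from the 0 h array (x axis) for the 21 member probe sets above the filter (y axis), with filled points for the brightest probe set of a gene and open points for others. Dashed lines mark 1.5-fold, and the grey band holds the central 90% of 19910 probe sets with 1 symbol above the filter. Cdkn1b and the dimmer Txnip probe set lie left of the band in each panel, and no member lies right of it.

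The 0 h array stood apart from the others in ways that are not particular to FoxO genes. The Y-linked Eif2s3y had 12.2 at 0 h against 295 to 326 on the insulin arrays, and Xist had 109 against 1278 to 1636. Of the 7 osteoblast markers measured, 5 were at least 1.5-fold higher at all 3 times, with sums of 53282, 78900.4, 86711 and 89509 at 0, 6, 12 and 24 h. Ibsp, the bone sialoprotein gene, had 202, 8849, 11706 and 13147. Of these markers, Col1a1, Col1a2 and Sparc were bright on every array, while Alpl (61.5), Sp7 (60.8) and Pth1r (36.9) were below the filter value at 0 h. All 7 of the macrophage and osteoclast markers above the filter, of 9 measured, were at least 1.5-fold higher at each time. Their summed intensity was 2342, 8773, 10039.9 and 11039 at 0, 6, 12 and 24 h. Of the chondrocyte markers 3 of 4 were higher at all 3 times, with sums of 836, 4382, 6256 and 6914. Of the skeletal and smooth muscle markers 3 of 4 above the filter, Acta2, Myh11 and Actg2, were higher, and Des was slightly lower. Myod1 and Myog, of skeletal muscle, were below the filter. The sums were 5959, 25798, 27561.8 and 26076, of which Acta2 gave 5705, 22597, 24118 and 23002. Of 5 adipocyte markers 3 were higher and 1, Lpl, was lower at all 3 times, and Pparg was 2.08-fold lower at 6 h. Their sums were 10541, 4171, 6602 and 8483, of which Lpl gave 9525, 1492, 2394 and 3035. Of 4 endothelial markers 1, Kdr, was above the filter and under 1.5-fold from 0 h, with sums of 193, 225, 192 and 206. All these sums are over the markers measured, dim ones included. Cd68 (36.1), Tyrobp (62.7), Acp5 (43.3), Col9a1 (32.3), Myh11 (24.9), Actg2 (30.1) and Adipoq (23.4) were below the filter value at 0 h. Like Alpl, Sp7 and Pth1r, they passed the filter only through the insulin arrays. The counts of higher markers were thus partly fixed by the filter. In such samples fewer cells of a type and less RNA per cell cannot be told apart. The part of these differences in the member values was not tested, and they stand beside every difference from 0 h.

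The insulin arrays were then compared with one another, which leaves out the 0 h array. By representative probe sets no member was 1.5-fold apart in any of the 3 pairs. Over all genes above the filter, the 12 h array had 1.14% past 1.5-fold upward and 0.334% downward relative to 6 h. For the 24 h array the shares were 1.68% and 0.12% relative to 6 h, and 0.103% and 0.103% relative to 12 h. Of the 30 differences of the 10 members, 2 lay outside the central 90% of all genes, and both were of Cdkn1b, lower at 12 h than at 6 h by -0.25 and higher at 24 h than at 12 h by 0.31 on the log2 scale.

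Counting every probe set above the filter, 11 of 63 differences between insulin arrays lay outside the central 90% of 19910 probe sets. The 63 are not separate observations, since the pairs share arrays and most genes have several probe sets. Sesn1 gave 4 of the 11, all relative to the 6 h array and from its 2 dimmer probe sets above the filter. Sesn1 lay inside the band in every pair by its brightest probe set. Its 3 probe sets were 1.23, 1.57 and 1.495-fold higher at 24 h than at 6 h, and most of that was present at 12 h, with 1.16, 1.42 and 1.34-fold. The second Btg1 probe set was 1.36-fold higher at 24 h than at 6 h, and the first 1.15-fold. The dimmer Ccng2 probe set was 1.34-fold lower at 24 h than at 6 h and the dimmer Txnip probe set 1.29-fold lower, while the brighter probe set of each was nearly level (1.01 and 1.04-fold higher). Foxo1 was higher at 12 h than at 6 h in all 3 probe sets above the filter, by 1.17, 1.31 and 1.20-fold. Osteoblast, macrophage, chondrocyte and adipocyte marker sums were also higher at 24 h than at 6 h, as given above. Their part in the values of Sesn1 and Btg1 was not tested.

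**Figure D3:**
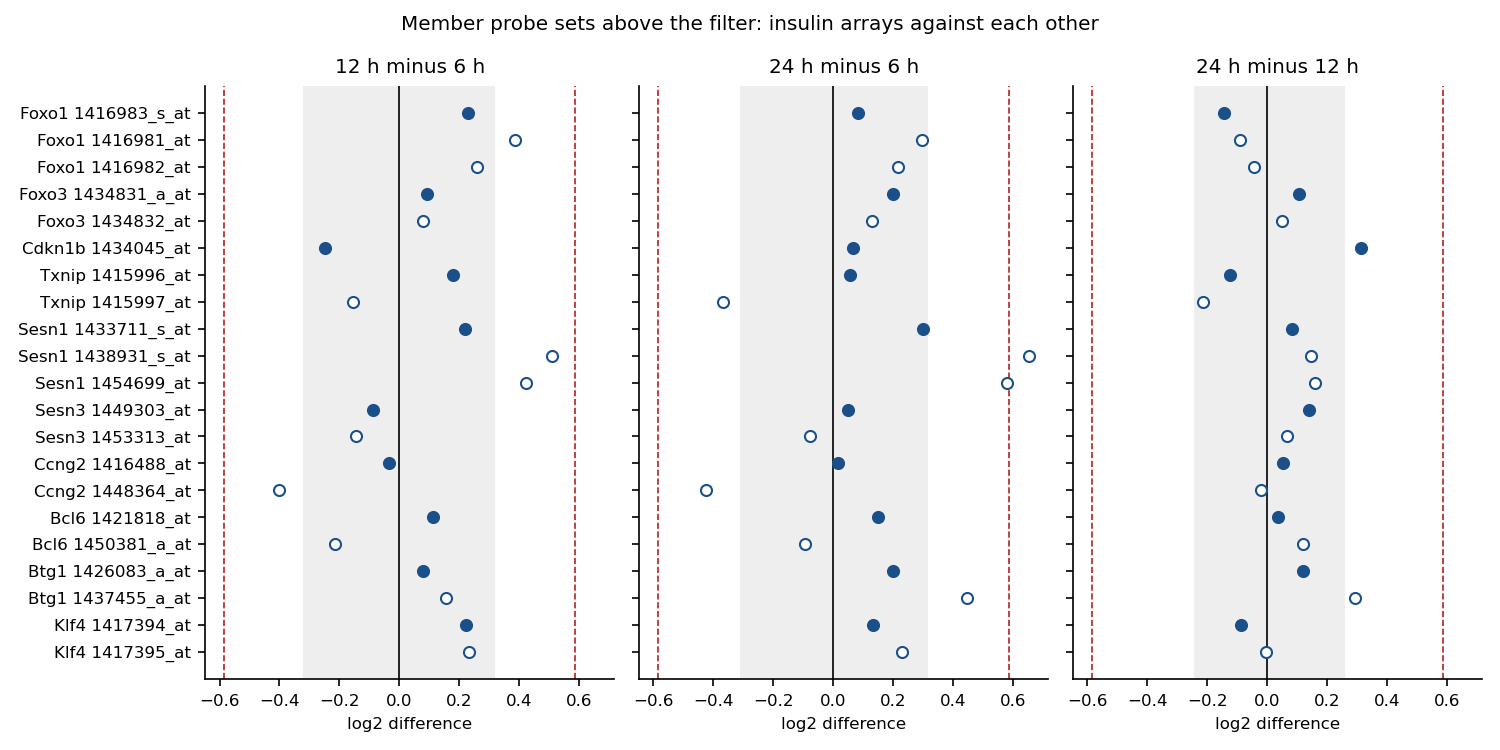
Log2 difference between insulin arrays (x axis) for the 21 member probe sets above the filter (y axis), with filled points for the brightest probe set of a gene. Dashed lines mark 1.5-fold and the grey band holds the central 90% of 19910 probe sets, and one Sesn1 probe set lies past 1.5-fold for 24 h minus 6 h.

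The genes whose differences from 0 h were nearest to those of the factors were taken by the Euclidean distance over the 3 log2 differences, which covers 4 arrays only. For Foxo1 they were Rilpl1, Erp29 and Cpd, at distances of 0.0217, 0.0356 and 0.0388, with 57 genes within 0.1. For Foxo3 they were Snai2, Reg2 and Ipmk at 0.0231, 0.0279 and 0.0308, with 68 genes within 0.1. Patterns this close to those of the factors were held by many genes.

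Other genes of the FoxO pathway were read from lists of kinases, partners and targets. Of 111 listed genes that are not members, 90 passed the filter. Of these, 11, 14 and 17 were at least 1.5-fold higher at 6, 12 and 24 h than at 0 h, or 12.2%, 15.6% and 18.9%. A further 15, 16 and 15 were lower, or 16.7%, 17.8% and 16.7%. Over all genes, as given above, the higher shares were 18.6%, 20.5% and 19.5% and the lower shares 12.8%, 13.3% and 13.3%. By brightest probe sets, the listed genes had fewer higher and somewhat more lower at each time, and the higher shares were nearly level at 24 h. The counts depended on the probe set choice. When the probe sets of a gene were averaged, 88 listed genes passed the filter. Of those, 11, 11 and 12 were higher and 13, 15 and 11 lower at 6, 12 and 24 h. Shares of all genes for that choice are not given here. The lists were written with earlier results of these data known and no set test was run, so these shares are a description only. The median log2 differences of the 90 were -0.0168, 0.0416 and 0.0122, near the 0.0058, 0.0325 and -0.0001 of all genes.

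Upstream of FoxO, 17 genes passed the filter. Past 1.5-fold upward were 1, 3 and 3 over time (5.88%, 17.6% and 17.6%) and downward 5, 4 and 3 (29.4%, 23.5% and 17.6%). All genes had 18.6% to 20.5% upward and 12.8% to 13.3% downward. In this list and those below, of 6 to 20 genes, a single gene weighs heavily in each share. Insr, the insulin receptor, had 369, 181, 206 and 215, and Sgk1, a kinase that phosphorylates FoxO like AKT, had 2224, 868, 898 and 968. Both were well below the 0 h array on each insulin array. Pik3r2, which encodes a PI 3-kinase regulatory subunit, had folds of 2.29, 2.16 and 2.46 below 0 h, and Prkaa2, a catalytic subunit of AMPK, was 2.61, 2.72 and 2.67-fold higher, from a 0 h value of 33.1 that is below the filter. Akt1 had 2556, 3405, 3420.5 and 3327 and Akt2 635, 712, 744 and 782, while another Akt2 probe set above the filter pointed the other way. Irs2, an insulin receptor substrate and FoxO target, had 112, 86.6, 77.6 and 81.5.

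Among partners and modifiers, 0 of 20 were 1.5-fold higher at any time and 3, 4 and 4 were lower. The lower shares were 15%, 20% and 20%, against 12.8% to 13.3% of all genes, and 18.6% to 20.5% of all genes were higher. Sirt1, a deacetylase that acts on FoxO proteins, was 1.82, 1.79 and 1.56-fold lower. Mdm2, a ubiquitin ligase for p53 that also acts on FoxO proteins, had 13646, 1895, 1823 and 1865.

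Cell cycle targets went both ways. Of 15, members included, 4, 3 and 4 were 1.5-fold higher (26.7%, 20% and 26.7%) and 4, 6 and 4 lower (26.7%, 40% and 26.7%). The shares of all genes were 18.6% to 20.5% higher and 12.8% to 13.3% lower. Cdkn1a, which encodes the inhibitor p21, had 4525, 11289.5, 11486 and 10459.8, the opposite direction to Cdkn1b. Of the cyclin D genes listed, Ccnd1 was 2.81, 2.79 and 2.89-fold higher and Ccnd2 1.62, 1.72 and 1.73-fold lower. Gadd45a, a growth arrest gene, was 1.79, 1.76 and 1.52-fold lower.

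Of 7 cell death targets 2, 2 and 2 were higher and 2, 1 and 2 lower. That is 28.6% higher at each time and 28.6%, 14.3% and 28.6% lower. All genes had 18.6% to 20.5% higher and 12.8% to 13.3% lower. Bcl2l11, which encodes the death-promoting BIM, had 1904, 744, 576 and 725 and was lower on each insulin array. Bnip3, a mitophagy receptor that low oxygen also induces, was 3.57, 2.57 and 2.60-fold higher. Pmaip1, the NOXA gene, went from 12.6 at 0 h to 961, 892 and 1001, so its fold is set by a value near background.

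Of 12 oxidative stress targets 3, 3 and 3 were higher and 3, 2 and 2 lower. That is 25% higher at each time and 25%, 16.7% and 16.7% lower, beside 18.6% to 20.5% and 12.8% to 13.3% of all genes. Besides Txnip and Sesn1, Selenop, a selenium carrier, was 2.92, 2.26 and 2.02-fold lower. Gpx1, a glutathione peroxidase, was 2.19, 2.02 and 2.06-fold higher, catalase (Cat) 1.68, 1.92 and 2.06-fold and Sesn2 1.51, 1.53 and 1.51-fold. The sestrins thus differed in direction, with Sesn1 and Sesn3 lower and Sesn2 higher.

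Of 10 metabolic and feedback targets 0 lay 1.5-fold above the 0 h array and 2, 2 and 2 below it, or 20% at each time. Lpl, lipoprotein lipase, had 9525, 1492, 2394 and 3035, lowest at 6 h. Of 15 autophagy and ubiquitin ligase targets 1, 3 and 4 were higher (6.67%, 20% and 26.7%). Lower were 0, 1 and 1 (0%, 6.67% and 6.67%). Of 6 genes linked to FoxO1 in osteoblasts 2, 2 and 3 were higher (33.3%, 33.3% and 50%). Lower among them were 1, 1 and 2 (16.7%, 16.7% and 33.3%). Beside these 3 lists, all genes had 18.6% to 20.5% higher and 12.8% to 13.3% lower. Ptprv, the phosphatase gene known in osteoblasts as Esp, had 289.9, 2499, 2766 and 2464, and Twist2, a repressor of osteoblast differentiation, had 1691, 361, 339 and 276. Igf1 had 1641, 5532, 5983 and 6024, which is 3.37, 3.65 and 3.67-fold higher than at 0 h. Igf1r, the IGF-1 receptor gene, is not on the lists and had 388, 259, 265 and 319 by its brightest probe set. Another Igf1r probe set above the filter pointed the other way. Transcripts of both genes were thus read above the filter on every array, and what this means for the genotype was not tested.

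**Figure D4:**
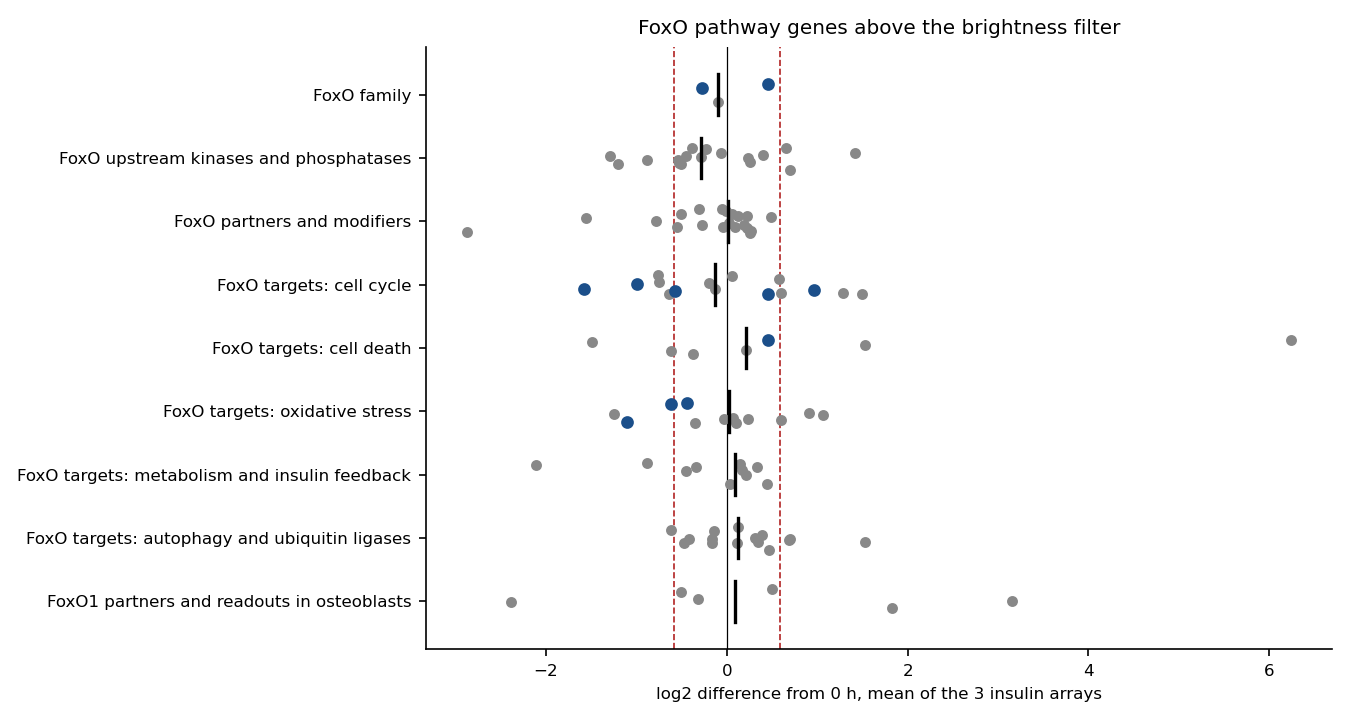
Log2 difference from 0 h, averaged over the 3 insulin arrays (x axis), for pathway genes above the filter by list (y axis, with a small vertical offset), with members in blue, other genes in grey and each list's median as a black bar. Dashed lines mark 1.5-fold. The medians run from -0.29 for upstream kinases and phosphatases to 0.21 for cell death targets, and every target list with a member has genes on both sides of 0.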

How the data were processed

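RNA of 4 mouse osteoblast cultures was measured on Affymetrix arrays, with cRNA labelled by in vitro transcription from an oligo-dT primer as the labels describe. The deposited table holds 1 linear intensity per probe set and array, and the submitters' processing notes name RMA, with its version and the genome build not given in the sources used here. RMA is known to compress differences of dim probe sets. The values ran from 7.34 to 31292, and array medians lay between 64.97 and 65.75.

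The table has 45101 probe sets, 64 of them controls, and GEO's platform annotation pairs 34945 with 1 symbol, 932 with several and 9160 with none. Log2 was taken, and each gene was represented by the probe set with the highest mean log2. Genes were kept where the geometric mean over arrays reached 66.2. Differences were counted at 1.5-fold. The counting was tested on simulated data. Members and lists were chosen with earlier results of these data known. Named were all members, up to 4 genes per list past 1.5-fold in 1 direction at all 3 times, a few set pathway genes where measured, and 3 nearest genes per factor. Motif matches of genes beyond the members were chosen after the data were seen. Alternatives were median centring, quantile normalization, the mean of all probe sets, no suffixed probe sets, log2(intensity + 32), other filters, 2-fold and removal of chromosome medians, for which 11644 genes had a chromosome in the RefSeq table of GRCm38.p6. Python 3.11.15, numpy 2.4.6, pandas 2.3.3 and matplotlib 3.10.9 were used.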

Additional observations from a re-analysis of the deposited data

How the results depend on the processing

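For the 10 members, all 180 log2 differences from 0 h recomputed under 6 other settings of scaling, probe set choice and chromosome medians kept their sign, and 161 stayed on their side of 1.5-fold. Part of the sign count was fixed in advance. A constant added to the intensities cannot reverse a sign. Leaving out suffixed probe sets kept the same probe set for Cdkn1b, Txnip, Sesn3, Ccng2, Bcl6 and Klf4. Single probe sets are not in this count, and the dimmer of Bcl6 and the dimmest of Foxo1 pointed the other way, as given above. With 2-fold in place of 1.5-fold, the members counted higher were 0 at 6 h and 0 at 24 h, and those lower were 2 at 12 h. Among other pathway genes 2-fold left 9, 9 and 8 lower at 6, 12 and 24 h, and 8 and 9 higher at 12 and 24 h. With the mean of all probe sets, 5 members were lower at 24 h, since Sesn3 (-0.72) and Ccng2 (-0.86) passed the line. With quantile normalization, 5, 5 and 4 members were lower at 6, 12 and 24 h. With chromosome medians removed, 2 members were higher at 12 h and 2 at 24 h, Foxo1 being added, and 5 were lower at 24 h. Sesn3 was then past 1.5-fold lower at each time (-0.63, -0.76 and -0.59). Sesn1 was past it at 12 and 24 h too (-0.71 and -0.61). Klf4 (0.54 at 6 h) and Ccng2 (-0.54 at 12 h) then missed 1.5-fold. Member counts between insulin arrays were 0 under the other scalings, probe set choices, filters and 2-fold. They were not recomputed with chromosome medians removed. No paired analysis was possible because each group has 1 array and the groups share only 1 replicate number. Signal over background limits the 5 dim member probe sets.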

Other observations

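The forkhead core was also looked for in the promoters of the other listed FoxO targets, after the data were seen. Of 57 listed targets above the filter, members included, 44 had a promoter sequence, or 77.2%. That is under the 80% coverage asked of a share over a gene set, so the share is void and the matches are given by name. Besides Txnip, Btg1 and Sesn1 they were Bcl2l11, Selenop and Bbc3, shown here with the core in capitals, all on the plus strand of GRCm38.p6 at chr2:128125801-128125827, chr15:3270943-3270969 and chr7:16310084-16310110.
Bcl2l11: agacactaggGTAAACAcgccggggtg
Selenop: agagggcgagGTAAACAacagggctat
Bbc3: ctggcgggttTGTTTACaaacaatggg
The matches start 227, 24 and 167 bases before the transcript start. Bcl2l11 and Selenop were lower on each insulin array than at 0 h, with log2 differences of -1.36, -1.73 and -1.39 and of -1.55, -1.18 and -1.01. Bbc3, the PUMA gene, was slightly higher, with 0.25, 0.21 and 0.18.

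Over all genes above the filter 9425 of 11661, or 80.8%, had a promoter sequence, and 288 of them held the core. Of these 14.9%, 14.2% and 13.2% lay at least 1.5-fold below the 0 h array at 6, 12 and 24 h, against 12.4%, 12.9% and 13% of the 9137 genes without it. The shares 1.5-fold higher were 19.1%, 19.8% and 19.8% with the core and 18.3%, 20.2% and 19.1% without it. Across all genes the core thus went with at most a small difference in these shares, and the comparison has no replicate check.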
